A study of Mus musculus with 19 samples.

Results

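The genes described here are 10 members of the route that builds and breaks down triglyceride in the liver, with the coactivator that stands above it: the lipins Lpin1, Lpin2 and Lpin3, Ppargc1b, the acyltransferases Gpam, Agpat2, Dgat1, Dgat2 and Mogat1, and the lipase Pnpla2. They were taken as every probe annotated with one of these symbols, which gave 12 probes of 10 genes among 23978 named probes of 16593 genes. Hepatic RNA of 19 male Swiss-Webster mice aged 7 weeks was hybridized to Illumina MouseRef-8 v2.0 beadchips, 1 mouse per array. Of these mice, 5 received the CB1 antagonist AM251 (10 mg/kg) and then IDFP (10 mg/kg), 8 received IDFP alone (10 mg/kg), and 6 received the solvent DMSO. All injections were intraperitoneal and in DMSO, all mice had been fasted, no label names a genetic change, and livers were taken after 4 h. IDFP (isopropyl dodecylfluorophosphonate) blocks MAGL and FAAH, which degrade the endocannabinoids 2-AG and anandamide, and both compounds reach the whole animal, so the tissue in which they act is not set by the design. None of these mice received AM251 alone.

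As background, triglyceride is assembled on glycerol 3-phosphate. Gpam adds the first acyl chain and Agpat2 the next, lipins remove the phosphate from phosphatidate to give diacylglycerol, and Dgat1 or Dgat2 adds the last chain, while Mogat1 reaches diacylglycerol from monoacylglycerol. Lipin 1 also acts in the nucleus as a transcriptional coactivator. Ppargc1b encodes PGC-1β, a coactivator of SREBP1c and of nuclear receptors such as the ERRs, and Pnpla2 encodes adipose triglyceride lipase, which makes the first cut in stored triglyceride.

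Sequence upstream of Lpin2 and Lpin1 is shown because these lipins had the largest changes of the triglyceride enzymes after IDFP. Windows of 250 bases before annotated starts were taken from RefSeq (GRCm38.p6) for 7 members, 11 windows in all. The Lpin2 window lies before the outermost start of the gene on the plus strand, at chr17:71183282-71183531, and capitals mark an E-box (CACGTG, its own reverse complement) that ends 4 bases before the start.
Lpin2: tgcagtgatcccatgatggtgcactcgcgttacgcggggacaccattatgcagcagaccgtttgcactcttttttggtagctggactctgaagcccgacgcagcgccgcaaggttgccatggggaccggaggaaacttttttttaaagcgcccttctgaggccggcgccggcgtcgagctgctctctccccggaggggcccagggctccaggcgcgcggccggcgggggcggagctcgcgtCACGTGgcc
The Lpin1 window lies before a start inside the gene on the minus strand, at chr12:16610967-16611216.
Lpin1: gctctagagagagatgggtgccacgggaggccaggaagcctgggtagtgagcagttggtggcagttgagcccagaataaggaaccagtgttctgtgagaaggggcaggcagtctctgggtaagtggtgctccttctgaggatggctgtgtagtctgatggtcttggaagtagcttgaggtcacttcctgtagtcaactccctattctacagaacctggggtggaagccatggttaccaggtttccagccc
An E-box was found in 1 of the 11 windows and in 6.02% of all 32851 such windows of the table. The cAMP response element TGACGTCA (1.55% of all windows) and the ERR element TCAAGGTCA (0.387%), searched on both strands, were in none of the 11. The CCAAT box, also searched on both strands, is in 33.8% of all windows and was in 1 Gpam window and, at 3 places, in the Lpin2 window before a start further inside the gene. A match of letters is a description of these windows and shows no binding.

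Signals below are array units after a background correction that adds about 41.7 units to each deposited value, so log2 differences of dim genes are smaller than the deposited values would give, and they are compared within a probe, never between genes. A probe was detected on an array above 17.5 to 17.6 deposited units, and 8997 to 9157 genes were detected per array. All 8 hepatocyte markers were tested, and no adipocyte or muscle marker on the array passed the filter (5 of each). The summed exocrine pancreas markers reached 13796 units in AM251/IDFP mouse 1, against 754 to 2043 in the other mice, and the summed neutrophil markers reached 6431 units in AM251/IDFP mouse 3, against 415 to 1663 in the others. The calls of members without mouse 1 or mouse 3 are given with their results. The median of the summed neutrophil markers was 1326 units in AM251/IDFP, 864 in IDFP and 609.9 in DMSO mice, and none of the 4 tested was called for IDFP vs. DMSO or AM251/IDFP vs. IDFP. That of the endothelial markers was 6224 units in AM251/IDFP (5399.7 to 8001), 6445 in IDFP (5851 to 8129) and 8049 in DMSO mice (6726 to 9139.5). Of 5 tested endothelial markers, only Clec4g was called for IDFP vs. DMSO, lower in IDFP mice (log2 difference -0.36, adjusted p = 0.0275). Between AM251/IDFP and IDFP mice, 1 of these 5 was called, Lyve1, which was higher (0.69, adjusted p = 0.046). In the same comparison only Clec4f was called of 6 tested Kupffer cell markers, lower (-0.42, adjusted p = 0.0467). Of 6 tested stellate cell markers only Lrat was called, also lower (-0.91, adjusted p = 0.0154). Median sums in AM251/IDFP and IDFP mice were 4181 and 4696 units for Kupffer cell markers. For stellate cell markers they were 10685 and 10901 units. Marker calls are not given for AM251/IDFP vs. DMSO. The part of these cell types in the members' differences was not tested. In whole liver, fewer cells of a type and less RNA per cell cannot be told apart.

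After IDFP, Ppargc1b and both detected lipins were higher than after DMSO, and so was Dgat2, while no member was lower. Of the 8 members tested, 4 passed an adjusted p of 0.05, all upward, where 6.76% of 9346 genes were called higher and 16.3% were called in either direction. With AM251 given before IDFP, 4 members were lower than after IDFP alone (Ppargc1b, Lpin2, Agpat2 and Gpam), where 4.85% of genes were called lower and 10.8% in either direction. Only Lpin1 was called between AM251/IDFP and DMSO, where 9.88% of genes were called and 3.66% were called higher. The median log2 difference of the 8 tested members was 0.42 for IDFP vs. DMSO, against -0.00087 for all tested genes, and -0.39 for AM251/IDFP vs. IDFP, against -0.01. The comparisons share the IDFP or the DMSO mice, so they are not independent of each other. The members were chosen with earlier results of these data known. Their counts and medians beside those of all genes are thus a description and no test of the set. Lpin3 and Mogat1 were not detected in any group as a whole and were not tested.

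**Figure D1:**
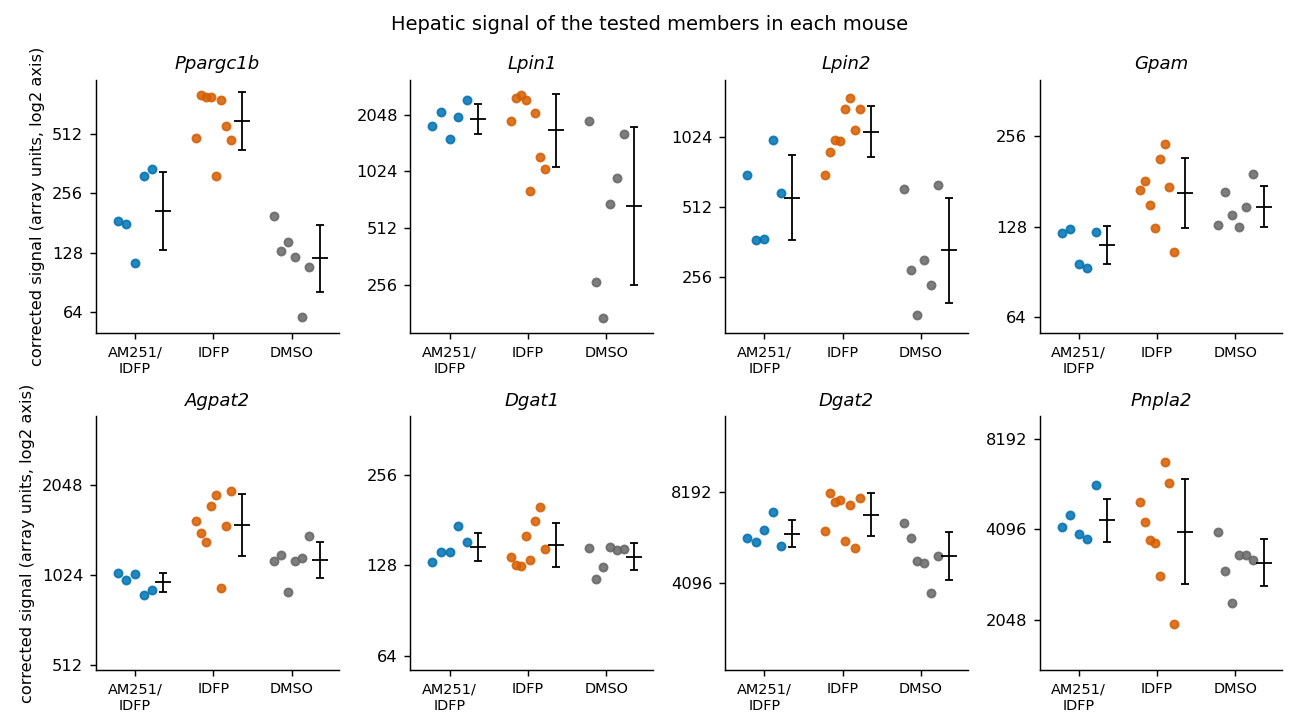
Corrected signal of the 8 tested members in each mouse (array units, log2 axis), with AM251/IDFP, IDFP and DMSO from left to right, a point per mouse, and the mean and SD of the log2 signals as bars. The 8 IDFP mice lie between 314 and 799 units for Ppargc1b and between 704 and 1505 units for Lpin2, above every DMSO mouse for both.

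Ppargc1b had the largest difference of the members both for IDFP vs. DMSO and for AM251/IDFP vs. IDFP. Its signal was 185, 178, 113, 311 and 341 in the 5 AM251/IDFP mice, it ran from 314 over a median of 661 to 799 in IDFP mice, and from 60.4 over a median of 127 to 196 in DMSO mice. Every IDFP mouse was above every DMSO mouse, and Ppargc1b and Lpin2 were the 2 of the 8 members whose IDFP mice all lay above the DMSO mice, against 1.52% of all tested genes. IDFP raised Ppargc1b by 2.31 on the log2 scale (SE 0.27, 95% interval 1.74 to 2.87, adjusted p = 1.26e-05, n = 8 and 6, limma), rank 3 of the rises among the tested genes. The ratio of mean deposited values was 6.78. In AM251/IDFP mice Ppargc1b was lower than in IDFP mice (log2 difference -1.51, SE 0.28, adjusted p = 0.00179), and 4 of 5 AM251/IDFP mice were below every IDFP mouse. Both calls held without any single mouse. Its level in AM251/IDFP mice was 0.80 above that in DMSO mice on the log2 scale (SE 0.30, adjusted p = 0.0982), which passed the threshold only without AM251/IDFP mouse 3 or DMSO mouse 1 (adjusted p of at least 0.0474).

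Lpin2, a phosphatidate phosphatase abundant in liver, followed the same order of groups. Its signal was 699, 369.7, 370.1, 988 and 587 in AM251/IDFP mice, ran from 704 over a median of 1046 to 1505 in IDFP mice, and from 175 over a median of 289 to 636 in DMSO mice. All 8 IDFP mice were above all DMSO mice, and the rise was 1.70 on the log2 scale (SE 0.28, adjusted p = 0.0003, rank 8 of the rises among tested genes). Lpin2 was lower in AM251/IDFP than in IDFP mice by a log2 difference of -0.94 (SE 0.29, adjusted p = 0.0425), with 4 of 5 AM251/IDFP mice below every IDFP mouse and mouse 4 within the IDFP range. That call was lost without any of 11 single mice: IDFP 3 to 8, AM251/IDFP 1, 2, 3 or 5, or DMSO 4 (adjusted p of at most 0.138). AM251/IDFP mice were 0.76 above DMSO mice (SE 0.31, adjusted p = 0.132), a difference called only without DMSO mouse 6 (adjusted p = 0.0437).

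Lpin1, whose product is both a phosphatidate phosphatase and a coactivator, was high in both IDFP-treated groups. Its bright probe read 1775, 2124, 1521, 1986 and 2455 in AM251/IDFP mice, ran from 803 over a median of 1999 to 2615 in IDFP mice, and from 171 over a median of 820.4 to 1893 in DMSO mice. The groups overlapped, with 5 of 8 IDFP mice above every DMSO mouse. The DMSO mice spanned an 11.1-fold range, and the SD of their log2 signals was at percentile 99.95 of those of all tested genes. IDFP mice were 1.33 above DMSO mice on the log2 scale (SE 0.43, adjusted p = 0.039). This call was lost without any of IDFP 1, 2, 3, 4 or 6 or DMSO 2, 3, 4 or 5 (adjusted p of at most 0.108). AM251/IDFP and IDFP mice were not called different (log2 difference 0.20, SE 0.46, 95% interval -0.74 to 1.15, adjusted p = 0.834). The AM251/IDFP mice were 1.54 above DMSO mice (SE 0.48, adjusted p = 0.0477), a call lost without any of 15 single mice (adjusted p of at most 0.117).

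Lpin1 had 2 other probes. A dim one was detected in 1 of 5 AM251/IDFP, 5 of 8 IDFP and 1 of 6 DMSO mice, so it passed the filter only through the IDFP mice. Its deposited values were 9.71, 19.2, 8.57, 1.87 and 3.11 in AM251/IDFP mice, ran from -1.20 over a median of 19.4 to 59.1 in IDFP mice, and from -13.9 over a median of -10.8 to 21.0 in DMSO mice. No difference is given for it, as most mice of the other groups were not above background. The third probe of Lpin1 was not detected in any mouse. Lpin3 was likewise not detected in any mouse, with deposited values from -13.1 to 9.55 units.

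**Figure D2:**
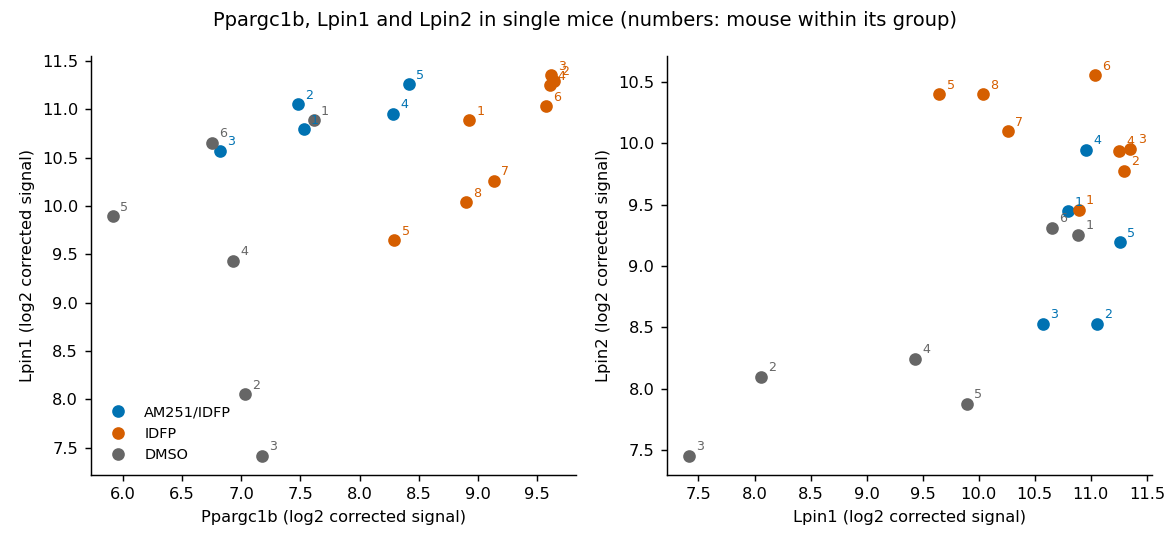
Log2 corrected signals of Ppargc1b against Lpin1 (left) and of Lpin1 against Lpin2 (right), a point per mouse with its number, coloured by group. On the left, the 8 IDFP mice form a rising line (r = 0.91) and the DMSO mice spread along the Lpin1 axis.

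Among single mice, Ppargc1b and Lpin1 varied together within the IDFP group. Pearson's r was 0.91 (exact permutation p = 0.00246, adjusted p = 0.0196 over 8 relations, n = 8) and Spearman's rho was 0.95 (exact p = 0.00114, adjusted p = 0.00913), and r was 0.72 without the 2 mice farthest from the median of Ppargc1b. IDFP mouse 5 had the lowest Ppargc1b and the lowest Lpin1 signal of its group. Within DMSO mice r was -0.09 (exact permutation p = 0.878, n = 6, rho = -0.09, exact p = 0.919), and it was -0.98 over the 4 mice left without the 2 farthest. The permutations treat the mice of a group as interchangeable. No label ties a mouse to a chip, so the part of the chip in these relations was not tested.

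The other pairs gave no relation that passed the adjustment. Ppargc1b and Lpin2 had r = -0.23 within IDFP mice (exact permutation p = 0.59, rho = -0.43, exact p = 0.299), and 0.45 without the 2 farthest. Within DMSO mice this pair had r = 0.32 (exact permutation p = 0.565, rho = -0.03, exact p = 1), which turned to -0.98 over 4 mice. Lpin1 and Lpin2 had r = 0.84 within DMSO mice (exact permutation p = 0.0556, adjusted p = 0.138, rho = 0.77, exact p = 0.103), and 0.87 without the 2 farthest. Within IDFP mice they had r = -0.51 (exact permutation p = 0.196, rho = -0.48, exact p = 0.243), and -0.12 without the 2 farthest. Ppargc1b and Dgat2 had r = 0.90 within DMSO mice (exact permutation p = 0.0236, adjusted p = 0.0944, rho = 0.71, exact p = 0.136), which was 0.067 over 4 mice. Within IDFP mice that pair had r = 0.67 (exact permutation p = 0.0689, adjusted p = 0.138, rho = 0.52, exact p = 0.197), and 0.88 without the 2 farthest. Whether these relations differ between groups was not tested. No correlation is given over the 5 AM251/IDFP mice, as at least 6 mice were asked for.

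Both early acyltransferases among the members, Gpam and Agpat2, were called lower in AM251/IDFP than in IDFP mice, and neither was called for IDFP vs. DMSO. Gpam, the mitochondrial enzyme that adds the first acyl chain, read 121, 125, 96.3, 92.9 and 123 in AM251/IDFP mice, from 105 over a median of 171 to 240.1 in IDFP mice, and from 128 over a median of 144 to 191 in DMSO mice. It was lower in AM251/IDFP than in IDFP mice (log2 difference -0.58, SE 0.16, adjusted p = 0.0252), a call lost without AM251/IDFP mouse 3 or 4 (adjusted p of at most 0.0758). Without AM251/IDFP mouse 3, which had the high neutrophil markers, 2 members (Ppargc1b and Agpat2) in place of 4 were called lower. Without AM251/IDFP mouse 1, which had the high pancreas markers, 3 of these calls held and that of Lpin2 was lost. All 5 AM251/IDFP mice also lay below all 6 DMSO mice for Gpam, with a log2 difference of -0.43 (SE 0.17, adjusted p = 0.121), and 2.82% of tested genes had all AM251/IDFP mice below all DMSO mice. IDFP and DMSO mice differed by 0.15 (95% interval -0.17 to 0.47, adjusted p = 0.565).

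Agpat2, which turns lysophosphatidate into phosphatidate, the substrate of lipins, read 1037, 988, 1034, 879 and 914 in AM251/IDFP mice. It ran from 929.9 over a median of 1521 to 1948 in IDFP mice and from 902 over a median of 1157 to 1382 in DMSO mice. The 5 AM251/IDFP mice all lay below the IDFP mean, 2 of them below every IDFP mouse, and the log2 difference was -0.63 (SE 0.14, adjusted p = 0.00593), which held without any single mouse. IDFP mice were 0.39 above DMSO mice (SE 0.13, 95% interval 0.11 to 0.67), with an adjusted p of 0.0508 that fell under the threshold without IDFP mouse 3, IDFP mouse 6 or DMSO mouse 6. Between AM251/IDFP and DMSO mice Agpat2 differed by -0.24 (95% interval -0.56 to 0.07, adjusted p = 0.332).

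Of the enzymes that complete triglyceride, Dgat2 was called higher after IDFP than after DMSO, and Dgat1 was not called in any comparison. Their changes for IDFP vs. DMSO were not shown to differ (0.33 on the log2 scale, exact permutation p = 0.126, adjusted p = 0.216 over 6 tests). Dgat2 read 5762, 5615, 6126, 7025 and 5409 in AM251/IDFP mice, from 5337 over a median of 7509 to 8163 in IDFP mice, and from 3772 over a median of 4917 to 6449 in DMSO mice. It was 0.46 higher in IDFP than in DMSO mice on the log2 scale (SE 0.12, adjusted p = 0.0131), with 8 of 8 IDFP mice above the DMSO mean, 5 of them above every DMSO mouse, and the call held without any single mouse. AM251/IDFP mice averaged between both groups and were called different from neither (-0.21 against IDFP, 95% interval -0.48 to 0.06, adjusted p = 0.341, and 0.25 against DMSO, 95% interval -0.04 to 0.53, adjusted p = 0.273).

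Dgat1, which is unrelated to Dgat2 in sequence, read 131, 141, 142, 172 and 153 in AM251/IDFP mice, from 127 over a median of 140.3 to 200.1 in IDFP mice and from 115 over a median of 144 to 147 in DMSO mice. The 95% interval was -0.10 to 0.35 for IDFP vs. DMSO and -0.25 to 0.22 for AM251/IDFP vs. IDFP. Mogat1, the monoacylglycerol acyltransferase, was detected in 1 of 5 AM251/IDFP mice (18.2 deposited units) and in no IDFP or DMSO mouse.

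The lipase Pnpla2 read 4169, 4562, 3957, 3795 and 5747 in AM251/IDFP mice, from 1982 over a median of 4052 to 6862 in IDFP mice and from 2332 over a median of 3296 to 4014 in DMSO mice. Its IDFP mice spanned a 3.46-fold range that held all DMSO mice. It was not called for IDFP vs. DMSO (0.35, 95% interval -0.09 to 0.78, adjusted p = 0.278), for AM251/IDFP vs. IDFP (0.13, 95% interval -0.33 to 0.58, adjusted p = 0.785) or for AM251/IDFP vs. DMSO (0.47, 95% interval -0.02 to 0.96, adjusted p = 0.218).

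**Figure D3:**
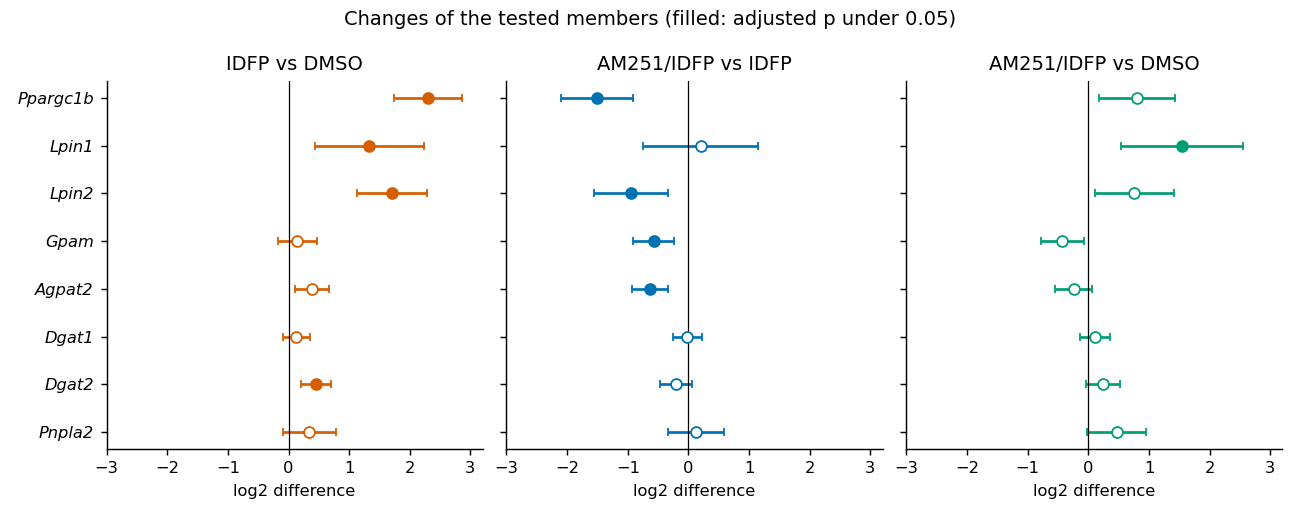
Log2 differences of the 8 tested members (x axis) with 95% intervals in a panel for each pair of groups (IDFP vs. DMSO on the left, the pair of IDFP-treated groups in the middle, AM251/IDFP vs. DMSO on the right), filled where the adjusted p was under 0.05. Ppargc1b and Lpin2 are filled to the right of 0 on the left (2.31 and 1.70) and to the left of 0 in the middle (-1.51 and -0.94), whereas Lpin1 is filled to the right of 0 in both comparisons with DMSO.

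Percent reversal, the share of the mean IDFP effect that was absent in AM251/IDFP mice, varied among the 4 members that IDFP raised. It was 80.0% for Ppargc1b (56.6 to 103% in single AM251/IDFP mice), 68.7% for Lpin2 (16.3 to 100.4%), 52.8% for Dgat2 (-2.39 to 83.6%) and -15.7% for Lpin1 (-69.2 to 34.4%). These values come from mean signals and depend on the scale. From deposited values, group medians or log2 signals, reversal was 65.3 to 89.2% for Ppargc1b, 55.5 to 68.7% for Lpin2 and 46.2 to 67.4% for Dgat2. From group medians the value for Lpin1 was 1.12%, and without IDFP mouse 5 it was 0.547%. In a direct comparison within mice, AM251/IDFP mice had a lower Lpin2 signal relative to Lpin1 than IDFP mice, by a log2 difference of -1.15 (two-sided exact permutation p = 0.0311, in 5 of 5 mice), but the adjusted p over 6 such tests was 0.186. The same difference between Lpin2 and Lpin1 for IDFP vs. DMSO was 0.37 (exact permutation p = 0.44). For Dgat2 relative to Dgat1 it was 0.33 for IDFP vs. DMSO (exact permutation p = 0.126) and -0.19 for AM251/IDFP vs. IDFP (exact permutation p = 0.322), and for Ppargc1b relative to Lpin2 it was 0.61 (exact permutation p = 0.144) and -0.56 (exact permutation p = 0.127). None of the 6 passed the adjusted threshold, so a difference in response between these pairs was not shown. The background correction shrinks the changes of dim genes more, so these differences also depend on it.

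The tested genes whose log2 signal followed Ppargc1b most closely over the 19 arrays were Map2k6 (r = 0.87), Arhgap26 (0.87), Mtmr3 (0.86), Fgfrl1 (0.85) and Uvrag (0.84). After group means were taken out, these r values were 0.65, 0.44, 0.41, 0.70 and 0.44. For Lpin2 they were Creb3l3 (r = 0.94), Rora (0.92), Mknk2 (0.92), Uvrag (0.92) and Cdc42ep4 (0.91), and within groups 0.88, 0.80, 0.90, 0.76 and 0.81. Creb3l3 encodes a liver transcription factor of the endoplasmic reticulum, Rora a nuclear receptor and Mtmr3 a phosphoinositide phosphatase. These genes were picked for following members that differ between the groups, so their own group differences are not counted here, and the r values carry no test.

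Around the members, 8 lists cover glycerolipid and lipid droplet metabolism, VLDL assembly, relatives and partners of Ppargc1b, and controls of lipins. They hold 81 further genes, and 61 of them were tested. These lists, too, were chosen with earlier results of these data known. For IDFP vs. DMSO 8 were called higher and 4 lower, which is 19.7% of the 61, against 16.3% of all tested genes. For AM251/IDFP vs. IDFP 1 was higher and 6 lower (11.5%, against 10.8%), and for AM251/IDFP vs. DMSO 3 were higher and 6 lower (14.8%, against 9.88%). Without single mice the counts were 7 to 15, 3 to 9 and 4 to 10, and they moved by more than 1.5 times without DMSO 5 in the first comparison, without AM251/IDFP 1, 2 or 3 in the next, and without AM251/IDFP 2 or 4 or DMSO 3, 4 or 5 in the last. Their median log2 difference was 0.12 for IDFP vs. DMSO and -0.08 for AM251/IDFP vs. IDFP.

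Among substrate suppliers, 8 of 12 listed genes were tested. Gpd1, which makes glycerol 3-phosphate, was 0.40 higher in IDFP than in DMSO mice (SE 0.13, adjusted p = 0.0363), and with AM251 it was lower than after IDFP alone (log2 difference -0.44, SE 0.14, adjusted p = 0.0421). The acyl-CoA synthetase Acsl3 was lower in AM251/IDFP than in IDFP mice (-0.53, SE 0.13, adjusted p = 0.011), and Acsl5 was lower in AM251/IDFP than in DMSO mice (-0.32, SE 0.09, adjusted p = 0.0268). None of the 5 tested genes among the other acyltransferases was called in any comparison (0 of 5 each). Of 11 tested genes listed around phosphatidate and diacylglycerol, the lipid phosphate phosphatase Plpp3 was lower in IDFP than in DMSO mice (-0.42, SE 0.11, adjusted p = 0.0109) and in AM251/IDFP than in DMSO mice (-0.43, SE 0.12, adjusted p = 0.0323). Its relative Plpp1 was higher in AM251/IDFP than in DMSO mice (0.54, SE 0.12, adjusted p = 0.00821). Selenoi, which makes phosphatidylethanolamine, was lower in AM251/IDFP than in IDFP mice (-0.32, SE 0.09, adjusted p = 0.0306).

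On the hydrolysis side, G0s2 and Hilpda, which both encode inhibitors of the Pnpla2 lipase, went opposite ways after IDFP, and Pnpla2 itself was not called. G0s2 averaged 249.9 ± 96.8 in AM251/IDFP mice, 412 ± 166 in IDFP mice and 1309 ± 488 in DMSO mice (SD, n = 5, 8 and 6). It was lower in IDFP than in DMSO mice by a log2 difference of -1.67 (SE 0.28, adjusted p = 0.000339) and lower in AM251/IDFP than in DMSO mice by -2.37 (SE 0.31, adjusted p = 0.000234), and the difference of -0.70 between AM251/IDFP and IDFP mice was not called (adjusted p = 0.139). Abhd5, the activator of the same lipase, was higher in AM251/IDFP than in DMSO mice (0.35, SE 0.10, adjusted p = 0.0318). Lipa, the lysosomal lipase, was lower in AM251/IDFP than in IDFP mice (-0.47, SE 0.15, adjusted p = 0.048).

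Of 9 tested lipid droplet genes, 2 were higher and 1 lower in IDFP than in DMSO mice. Hilpda averaged 319 ± 123 in AM251/IDFP mice, 601 ± 219.9 in IDFP mice and 228 ± 17.0 in DMSO mice (SD, n = 5, 8 and 6). It rose by 1.33 after IDFP relative to DMSO (SE 0.20, adjusted p = 0.000159) and AM251/IDFP mice lay below IDFP mice (-0.91, SE 0.21, adjusted p = 0.00862). Cidec, which enlarges lipid droplets, is counted among the 2, but it was detected in 4 of 5 AM251/IDFP, 8 of 8 IDFP and 1 of 6 DMSO mice. Its deposited mean was 28.9 units in AM251/IDFP mice, 52.2 in IDFP mice and 6.93 in DMSO mice, the last not above background, so no difference is given. The droplet coat gene Plin3 was lower in IDFP than in DMSO mice (-0.33, SE 0.10, adjusted p = 0.0275). Plin3 was also lower in AM251/IDFP than in DMSO mice (-0.48, adjusted p = 0.0133), and so was Bscl2, which encodes seipin (-0.32, adjusted p = 0.0267). Of 5 tested genes of VLDL assembly, Mttp, which loads lipid onto apolipoprotein B, rose by 0.40 after IDFP relative to DMSO (SE 0.12, adjusted p = 0.0262) and the transport GTPase Sar1b by 0.28 (SE 0.08, adjusted p = 0.0175). Neither was called for AM251/IDFP vs. IDFP.

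Among 12 tested relatives and partners of Ppargc1b, Srebf1, which encodes SREBP1, averaged 86.3 ± 29.4 in AM251/IDFP mice, 180.4 ± 102 in IDFP mice and 73.6 ± 14.8 in DMSO mice (SD, n = 5, 8 and 6). It was 1.16 higher in IDFP than in DMSO mice (SE 0.25, adjusted p = 0.00339), and AM251/IDFP mice lay below IDFP mice (-0.96, SE 0.27, adjusted p = 0.023). Srebf1 was dim, with deposited means of 44.7 units in AM251/IDFP, 139 in IDFP and 32.0 in DMSO mice. It was detected in 5 of 6 DMSO mice and in all mice of the other groups. The paralogue Ppargc1a rose by 0.90 after IDFP relative to DMSO (SE 0.21, adjusted p = 0.0048), was 0.79 above DMSO in AM251/IDFP mice (SE 0.23, adjusted p = 0.0349) and differed by -0.11 between AM251/IDFP and IDFP mice (SE 0.22, adjusted p = 0.804). Foxa2, a liver transcription factor, went the other way, with a log2 difference of -0.51 for IDFP vs. DMSO (SE 0.11, adjusted p = 0.00345) and 0.64 for AM251/IDFP vs. IDFP (SE 0.12, adjusted p = 0.00134). Mlxipl, which encodes ChREBP, was lower in AM251/IDFP than in DMSO mice (-0.77, SE 0.18, adjusted p = 0.0138). Of 4 tested genes that control lipins, Ywhaq, a 14-3-3 protein of the kind that binds phosphorylated lipin 1, was 0.27 higher in IDFP than in DMSO mice (SE 0.09, adjusted p = 0.0351).

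**Figure D4:**
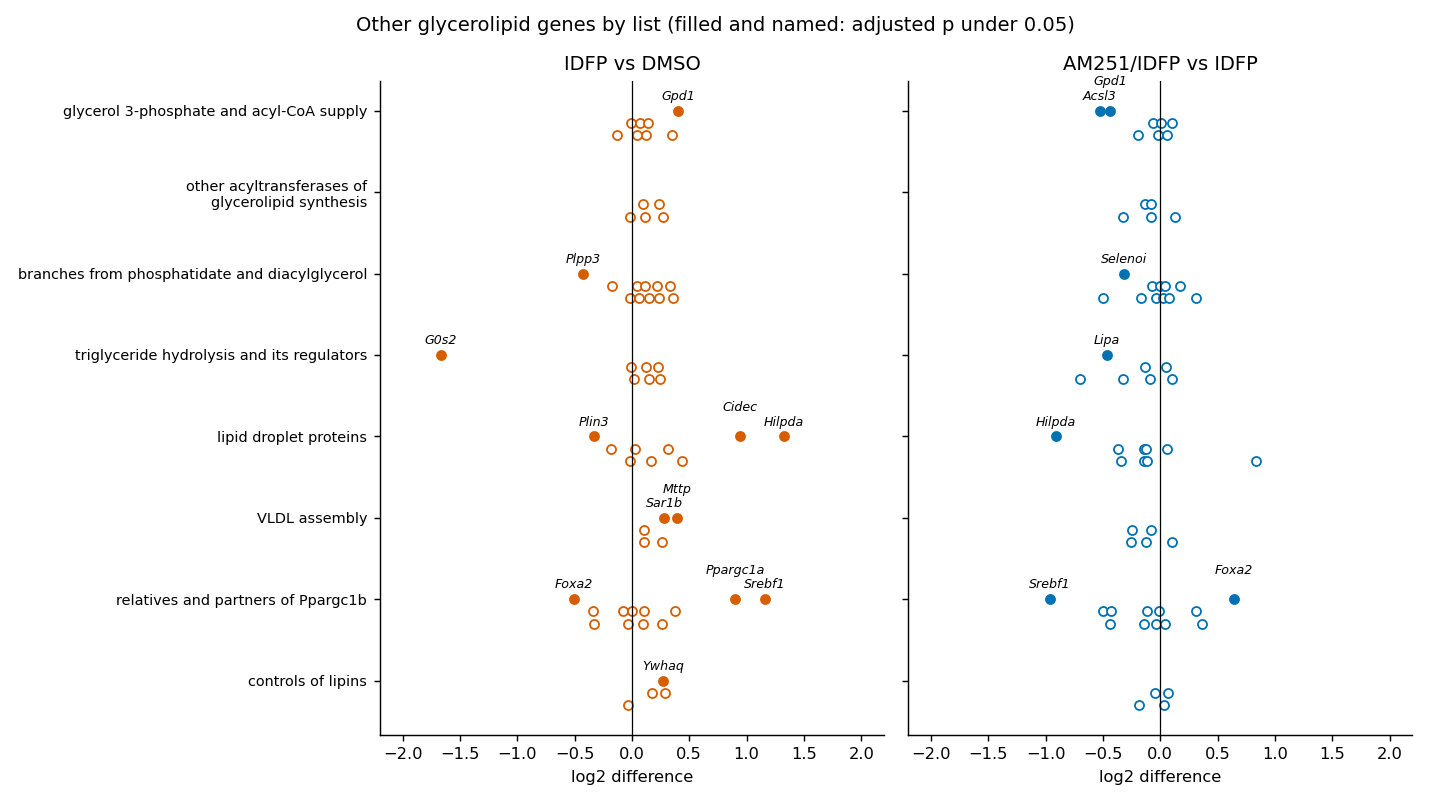
Log2 differences (x axis) of the 61 tested genes of the 8 lists for IDFP vs. DMSO (left) and AM251/IDFP vs. IDFP (right), a point per gene, filled and named where the adjusted p was under 0.05 and shifted downward otherwise for legibility. Cidec, filled on the left, was detected in 1 of 6 DMSO mice. G0s2 stands at -1.67 on the left, and Hilpda and Srebf1 stand right of 0 on the left (1.33 and 1.16) and left of 0 on the right (-0.91 and -0.96).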

How the data were processed

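Hepatic RNA of 19 mice was read on 1-colour arrays. The authors deposited intensity values made in BeadStudio 3.2 with quantile normalization and background subtraction, and 30.1% of these deposited intensities lie below 0. A further table of non-normalized signals has 38 columns that no label assigns to a mouse, so this table was left out. Probes were named from the platform annotation, of which 23962 matched RefSeq. The genome build of the probes is not given in the sources used here. Intensities were corrected with normexp of limma 3.58.1 in R 4.3.3 without control probes (offset 16), quantile normalized and put on the log2 scale. A gene was tested when a probe was detected (above 1.64 times the background SD, taken from the values below 0) on most arrays of at least 1 group, with its brightest detected probe. One fit over all 3 groups (lmFit and eBayes) was adjusted by Benjamini-Hochberg over 9346 genes, with a threshold of 0.05. Exact permutation tests over mice were used for the within-mouse difference between 2 members and for correlations within a group. Named beside the members are up to 4 genes of each list past the threshold in any comparison, ranked by p for IDFP against DMSO, and the 5 genes most like Ppargc1b and Lpin2. The members and lists were chosen with earlier results of these data known. The number of arrays limits the precision. The fit was tested on simulated log2 values, drawn independently for each gene, with known changes. This did not cover the background correction, the detection filter or the permutation tests. Tables and plots were made with Python 3.11.15, numpy 2.4.6, pandas 2.3.3 and matplotlib 3.10.9. Alternatives were other offsets, scaling, detection filters, probe summaries, variance estimates, a replicate-number block, fits of 2 groups and leaving out each mouse.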

Additional observations from a re-analysis of the deposited data

How the results depend on the processing

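Counts of called members for IDFP vs. DMSO stayed between 3 and 5 under 12 other settings, and those for AM251/IDFP vs. IDFP between 3 and 4. For AM251/IDFP vs. DMSO the count was 0 instead of 1 with an offset of 4, a floor of 10 on the deposited values, no detection filter, the mean over probes, probes as separate features, trend and robust variance, or a fit of the 2 groups alone. For Lpin1 the mean over probes takes in the dim probe that passed the filter only through the IDFP mice. Lpin1 lost its call for IDFP vs. DMSO in 5 of 12 settings (adjusted p of at most 0.0659) and for AM251/IDFP vs. DMSO in 8 of 12 (at most 0.0951), Lpin2 lost it for AM251/IDFP vs. IDFP in 4 (at most 0.134), Agpat2 gained it for IDFP vs. DMSO in 4 (at least 0.0463), and the cause was not tested.

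Without single mice, called members numbered 3 to 5 for IDFP vs. DMSO, 2 to 4 for AM251/IDFP vs. IDFP and 0 to 2 for AM251/IDFP vs. DMSO, and called list genes 7 to 15, 3 to 9 and 4 to 10. With no detection filter, which tests more genes, 4 list genes were called for AM251/IDFP vs. IDFP in place of 7, and 4 for AM251/IDFP vs. DMSO in place of 9. Lpin2 relative to Lpin1 differed by -1.35 to -0.95 between AM251/IDFP and IDFP mice without single mice. With the mean over probes it differed by -0.92 (exact permutation p = 0.0536). That mean takes in the dim Lpin1 probe, which passed the filter only through the IDFP mice. Without single mice the difference of Lpin2 relative to Lpin1 for IDFP vs. DMSO was 0.17 to 0.58, Dgat2 relative to Dgat1 differed by 0.23 to 0.44 for IDFP vs. DMSO and -0.31 to -0.13 for AM251/IDFP vs. IDFP, and Ppargc1b relative to Lpin2 by 0.39 to 0.84 and -0.74 to -0.44. Under 4 other settings, Ppargc1b relative to Lpin2 differed by 0.42 to 1.06 for IDFP vs. DMSO (exact permutation p of 0.0543 to 0.254). For AM251/IDFP vs. IDFP it differed by -0.75 to -0.46 (exact permutation p of 0.0824 to 0.189). Percent reversal without single mice was 74.3 to 85.8 for Ppargc1b, 60.8 to 81.8 for Lpin2, 45.1 to 66.6 for Dgat2 and -32.1 to 0.547 for Lpin1, which was 1.12 from group medians.

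Same-numbered mice correlated at -0.19 to 0.26 over 16 pairs. No label says that the numbers pair the mice, and these values alone cannot settle it. With the replicate number as a block, Lpin1 for IDFP vs. DMSO had an adjusted p of 0.0546 and Lpin2 for AM251/IDFP vs. IDFP one of 0.134. For AM251/IDFP vs. DMSO Lpin1 had one of 0.0559 and Gpam one of 0.0391, and 3 list genes were called for AM251/IDFP vs. IDFP. The chip as a block was not run, since no label ties a mouse to a chip. Low signal limits Lpin3, Mogat1 and the undetected probe of Lpin1, for which a fall or a small rise would not be detectable.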
